A study of Rattus norvegicus with 12 samples.

Results

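The genes described here are the inhibitors of DNA binding Id1, Id2, Id3 and Id4, the inhibitory Smads Smad6 and Smad7, the BMP-branch Smad gene Smad9, and Bambi. They were taken by gene symbol from the table of each library, where 8 of 8 were found among 17312 symbols, and all 8 were among the 10518 genes that passed the filter on low values. The study sequenced messenger RNA of ventricular cardiomyocytes from newborn Wistar rats, given a control siRNA or an siRNA against the ligand gene Wnt5a, and either left unstretched or subjected to cell stretch. The 4 groups, called unstretched control, unstretched Wnt5a siRNA, stretched control and stretched Wnt5a siRNA, held 3 libraries each. All cells had received an siRNA, and how strongly and how long they were stretched is not given in the sources used here. The labels do not state that replicate numbers mark separate cultures, so p-values measure only how these libraries vary, and that variation may be technical.

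Bone morphogenetic proteins (BMPs) and TGF-beta ligands bind pairs of receptor kinases, which phosphorylate receptor-activated Smad proteins that enter the nucleus with Smad4. Id genes are among the most direct BMP targets, and Id proteins, which have a helix-loop-helix domain but no basic DNA-binding region, pair with E proteins and keep them and tissue-specific bHLH factors off DNA. Smad6 and Smad7 are induced by the same signals and block the receptors and receptor-activated Smads, so that the pathway limits itself, and Bambi encodes a pseudoreceptor that lacks the kinase domain. In the heart, Id genes take part in early cardiac development and are prominent in endothelium and endocardium.

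Levels are the authors' FPKM (fragments per kilobase of transcript relative to mapped fragments), given as mean ± SD (n = 3) or for libraries 1, 2 and 3 in turn. Whether the libraries were also scaled to each other is not given in the sources used here. Changes are differences of mean log2(FPKM + 1) ± SE, which understate the change of genes with low values, and adjusted p is from limma over all 10518 genes, with 0.05 as the threshold. FPKM hold no read counts, so the depth behind a value is unknown and the precision is that of the 3 libraries. Unstretched libraries had summed FPKM of 575161 to 607276 and stretched ones of 619742 to 709021. When every library was scaled to an equal sum (TPM scaling), the median change of all genes with stretch moved from 0.01 to −0.20 with control siRNA and from −0.01 to −0.12 with Wnt5a siRNA. The siRNA target Wnt5a was at 12.3, 10.4 and 11.6 FPKM in unstretched cells with control siRNA and 6.15, 4.60 and 6.81 in those with Wnt5a siRNA. Under stretch it was at 6.52, 5.66 and 8.22 FPKM with control siRNA and 6.22, 5.88 and 5.56 with Wnt5a siRNA, which did not differ by the test (adjusted p = 0.3871), so that under stretch the target gives no check of the label.

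All 9 listed cardiomyocyte markers had values above 0, with summed levels of 17940 to 37632 FPKM. Actc1 alone was at 4717 to 18628 FPKM and weighs heavily in these sums. Summed levels were 3343 to 9326 FPKM for fibroblast, 517 to 720 for mural, 116 to 409 for macrophage, 17.8 to 91.5 for endothelial and 12.2 to 23.6 for epicardial markers. The fibroblast marker Col1a2 was listed at 0 throughout, which can be a failed estimate. Stretched control 3 stood apart from its replicates, with a SD of log2 differences of 0.393 and 0.426, against 0.205 to 0.288 for all other pairs of replicates. Its fibroblast markers summed to 8179 FPKM against 4722 and 4781 in stretched controls 1 and 2, its macrophage markers to 409 against 249 and 252, and its cardiomyocyte markers to 25416 against 34657 and 37632. In bulk RNA, fewer cells of a type and less RNA per cell cannot be told apart. Results that rest on this library are therefore given with and without it.

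The proximal promoters of the 4 Id genes are shown because each was called higher with stretch under either siRNA, although by different amounts. Promoters of 7 of the 8 genes were matched by symbol in a RefSeq table for the rat assembly GRCr8, all but Smad6. The 250 bases before the annotated start are given in the direction of transcription. Capitals mark the GC box GGGCGG, the TATA letters TATAA, the inverted CCAAT box ATTGG and the TEAD letters GGAATG, each searched on both strands. The Id1 window is chr3:161671314-161671563 (plus strand), Id2 chr6:47470996-47471245 (minus), Id3 chr5:153656041-153656290 (plus) and Id4 chr17:16598294-16598543 (minus).
Id1: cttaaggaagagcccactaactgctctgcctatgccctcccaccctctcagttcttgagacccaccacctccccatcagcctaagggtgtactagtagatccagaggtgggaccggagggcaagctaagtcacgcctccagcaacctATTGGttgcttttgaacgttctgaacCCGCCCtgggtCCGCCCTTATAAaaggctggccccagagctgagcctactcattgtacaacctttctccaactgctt
Id2: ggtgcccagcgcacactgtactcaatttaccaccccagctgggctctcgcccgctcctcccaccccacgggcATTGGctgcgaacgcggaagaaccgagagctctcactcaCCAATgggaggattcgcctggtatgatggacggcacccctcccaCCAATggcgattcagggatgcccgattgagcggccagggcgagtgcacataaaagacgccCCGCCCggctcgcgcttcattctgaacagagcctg
Id3: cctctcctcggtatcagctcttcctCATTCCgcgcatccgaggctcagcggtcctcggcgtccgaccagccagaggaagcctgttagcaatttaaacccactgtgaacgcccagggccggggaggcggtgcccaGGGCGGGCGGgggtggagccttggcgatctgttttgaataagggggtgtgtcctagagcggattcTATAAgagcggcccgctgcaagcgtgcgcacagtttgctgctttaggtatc
Id4: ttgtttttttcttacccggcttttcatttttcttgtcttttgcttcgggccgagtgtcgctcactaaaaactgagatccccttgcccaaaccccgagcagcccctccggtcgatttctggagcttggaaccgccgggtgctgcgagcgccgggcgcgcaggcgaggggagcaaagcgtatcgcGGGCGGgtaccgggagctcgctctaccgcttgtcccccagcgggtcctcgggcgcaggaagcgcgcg

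Every one of the 7 matched promoters held the GC box, which stood in 30.5% of all 33469 promoters of this length and in 59.8% of the 8450 promoters that matched a tested gene. TATAA stood in Id1 and Id3 alone among the 7, at 59 to 55 and 51 to 47 bases before the start, in 24.0% of all promoters and in 12.4% of those of tested genes. In Id1 it overlaps its own reverse complement, and in Id3 a pair of GC boxes overlap each other. Id2 held 3 ATTGG matches and Id1 held 1, against shares of 34.0% of all and 35.1% of tested genes' promoters with at least 1. The TEAD letters, bound by the partners of YAP, stood only in Id3 among the 7, in 12.1% of all promoters and in 10.2% of those of tested genes. Of the letters known for Smad binding, GGCGCC was found in Smad7 (2 matches), Smad9 and Bambi (1 each), in 8.69% of all promoters and in 17.7% of those of tested genes. CAGAC was found in Smad9, in 42.9% of all promoters and in 41.6% of those of tested genes. In Bambi GGCGCC overlaps TGACG, which stood in 18.2% of all and in 29.2% of tested genes' promoters. TGACG is the core of the cAMP response element TGACGTCA, which itself was in none of the 7, in 1.59% of all and in 3.04% of tested genes' promoters. A match is a description of the letters in this window and not of a bound site. Id1 had 54.8% G and C and the other 6 had 61.2% to 78.0%, against a median of 51.2% over all promoters. The median over the promoters of tested genes, in which the GC box was more common, was not computed.

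The first comparison asks what stretch does where Wnt5a was not targeted. Of the 8 genes 6 rose and Bambi fell, while Smad9 did not pass. Over all tested genes 54.3% were called, 27.5% higher and 26.8% lower (2889 and 2822 genes, or 1450 and 4506 with TPM scaling, where 4 of the 8 genes rose and 1 fell). The median change over the 8 genes was 0.67, against 0.01 over all genes. The values of the groups did not overlap for 7 of the 8 genes, against 58.0% of all tested genes. In the same comparison 7 of 9 tested fibroblast and 5 of 9 macrophage markers rose and none fell, 2 of 9 cardiomyocyte markers rose and 5 fell, and 1 of 11 endothelial markers rose and 1 fell. Without stretched control 3 no endothelial marker rose and 2 fell, and 4 macrophage markers rose. With TPM scaling 4 fibroblast and 2 macrophage markers rose, and the part of these cells in the values below was not tested.

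Id1 had 16.0, 15.3 and 13.3 FPKM before and 87.0, 69.2 and 67.0 FPKM with stretch. Every stretched library was far above every unstretched one, and the mean was 500% of the unstretched mean (log2 change 2.24 ± 0.21, adjusted p = 5.9e-06), and 11 of the 10518 genes rose by more on this scale. Id4, the least abundant Id gene, was at 4.52, 5.09 and 2.46 FPKM without and 19.9, 17.3 and 21.2 with stretch. Its mean was 484% of the unstretched mean (2.07 ± 0.22, adjusted p = 1.3e-05), again with no overlap. Id3, the most abundant, went from 71.6, 62.7 and 64.4 to 181, 142 and 208 FPKM (1.39 ± 0.17, adjusted p = 2.9e-05). Id2 moved least of the 4. It was at 41.0, 53.7 and 51.7 FPKM without and 64.3, 64.9 and 76.6 with stretch (0.49 ± 0.11, adjusted p = 0.0028). The rise of Id2 was 0.26 with TPM scaling and did not pass there (adjusted p = 0.0568), whereas those of Id1, Id3 and Id4 passed under all 20 alternatives tried.

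**Figure D1:**
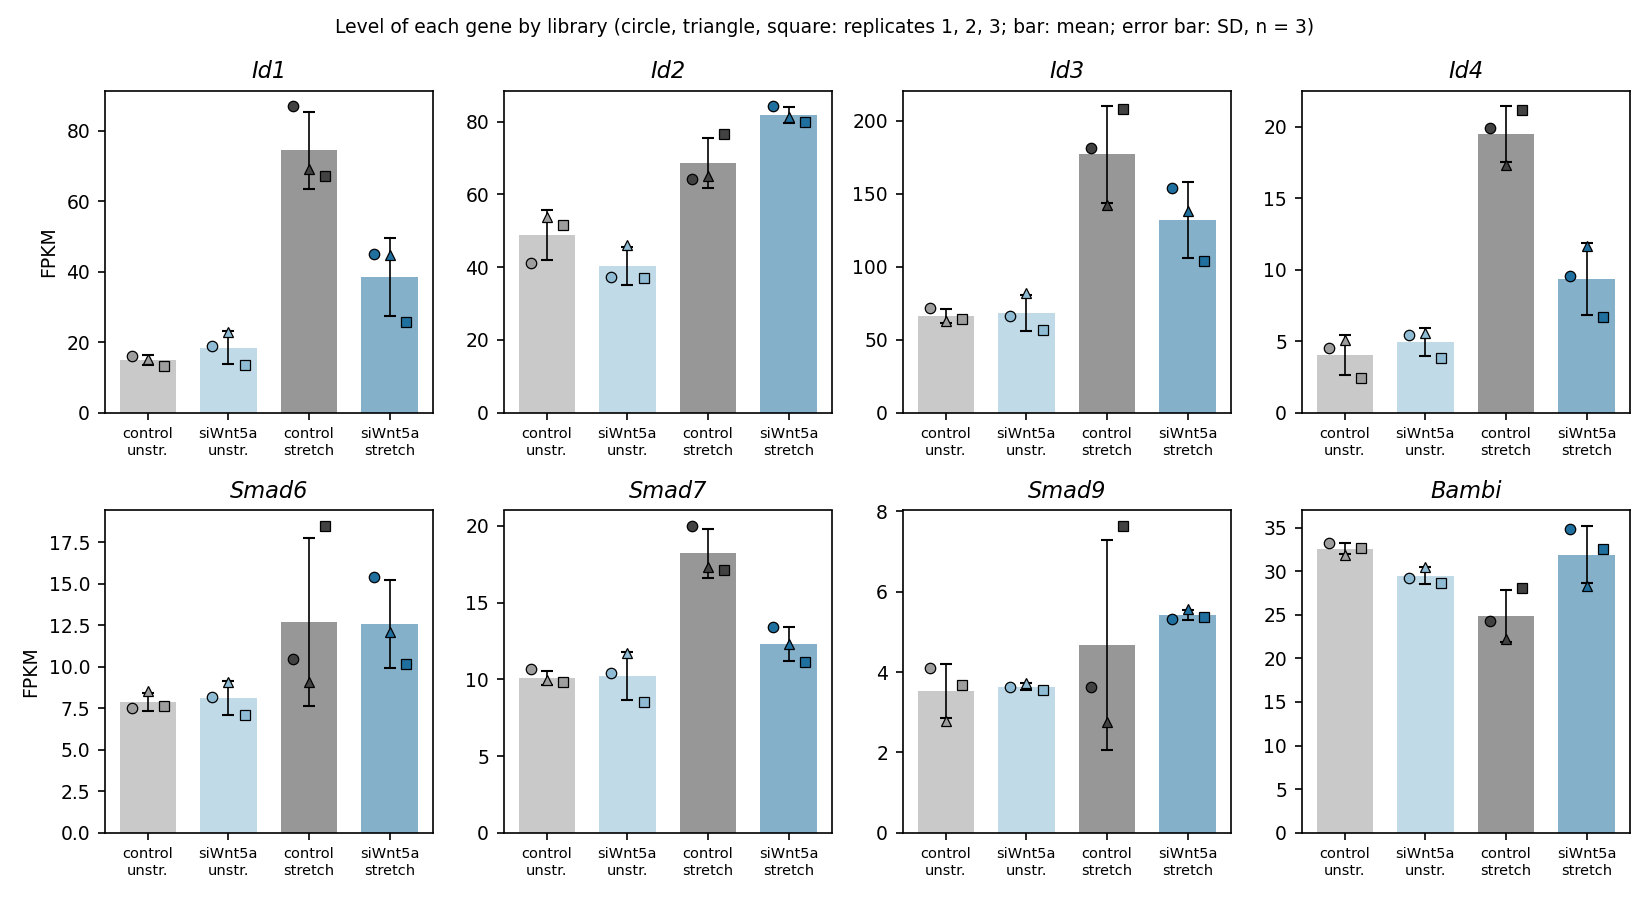
FPKM (vertical axes, from 0) of the Id, Smad and Bambi genes in the 4 groups, with a bar for the mean, an error bar for the SD (n = 3) and a symbol for each library (circle, triangle and square for replicates 1, 2 and 3). Id1 and Id4 stand highest in the stretched control and lie between in the stretched Wnt5a siRNA libraries, Id2 is highest in the stretched Wnt5a siRNA libraries, and Bambi is lowest in the stretched control.

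The Smad inhibitors rose less than Id1. Smad7, which blocks both the TGF-beta and the BMP branch, had 10.7, 9.93 and 9.81 FPKM without stretch and 20.0, 17.3 and 17.1 FPKM with it. The groups were clearly separate, with a ratio of means of 1.79 (0.78 ± 0.11, adjusted p = 9.0e-05), and the call held under all 20 alternatives. Smad6, which acts mainly on the BMP branch, was at 7.52, 8.52 and 7.63 FPKM without and 10.5, 9.07 and 18.5 with stretch. Its change of 0.57 ± 0.21 (adjusted p = 0.0361) rested on stretched control 3, without which it was 0.28 ± 0.15 and did not pass (adjusted p = 0.1230). It also did not pass with TPM scaling (0.36, adjusted p = 0.1553), without a filter (0.0612), with only these groups in the fit (0.0723), with the replicate block (0.0517), or without unstretched control 1 (0.0870), 2 (0.0545) or 3 (0.0878).

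Smad9, which encodes a receptor-activated Smad of the BMP branch, had 4.11, 2.79 and 3.68 FPKM without stretch and 3.62, 2.76 and 7.64 FPKM with it. The groups overlapped, and only stretched control 3 was high. The change of 0.24 ± 0.23 (95% interval −0.26 to 0.75, adjusted p = 0.3970) became −0.11 ± 0.13 without that library. Stretched control 3 was the highest of its group for 6 of the 8 genes, Smad6 and Smad9 among them, and, as given above, for fibroblast and macrophage markers, and the part of those cells in these values was not tested. Bambi went the other way, from 33.2, 31.9 and 32.7 FPKM to 24.3, 22.2 and 28.1. All 3 stretched libraries were below the unstretched ones (−0.38 ± 0.09, adjusted p = 0.0034), and the fall passed under all 20 alternatives.

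Exact 2-sided permutation tests of the 8 genes gave p = 0.1 for the 7 without overlap, the smallest that 3 libraries against 3 allow, and p = 0.900 for Smad9.

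Stretch with Wnt5a siRNA raised all 4 Id genes, by 1.89-fold to 2.09-fold, and changed none of the other 4 by the test. Over all genes 16.0% were called, 8.44% higher and 7.59% lower (888 and 798 genes, or 501 and 1779 with TPM scaling). The median over the 8 genes was 0.67, against −0.01 over all genes. The groups did not overlap for 6 of the 8 genes, against 40.7% of all tested genes.

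Id1 was at 18.8, 23.0 and 13.6 FPKM without stretch and 44.9, 44.7 and 25.8 FPKM with it (1.01 ± 0.21, adjusted p = 0.0071). Id2 went from 37.2, 46.2 and 37.1 to 84.3, 81.2 and 80.0 FPKM (1.02 ± 0.11, adjusted p = 2.6e-04). Id3 went from 66.5, 81.7 and 56.8 to 154, 138 and 104 FPKM (0.94 ± 0.17, adjusted p = 0.0034). With each of these genes the lowest stretched library still exceeded the highest unstretched one, and the 3 calls held under all 20 alternatives.

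Id4 was at 5.44, 5.55 and 3.83 FPKM without and 9.56, 11.7 and 6.73 with stretch (0.78 ± 0.22, adjusted p = 0.0303). The groups did not overlap, but its call was lost without a filter (0.0544), without unstretched Wnt5a siRNA 1 (0.0609) or 3 (0.1117), and without stretched Wnt5a siRNA 1 (0.1015) or 2 (0.1188). Smad6 was at 8.20, 9.09 and 7.07 FPKM and, with stretch, at 15.4, 12.1 and 10.2. Its change of 0.56 ± 0.21 did not pass in the fit to all libraries (adjusted p = 0.0886), but did with only these groups (adjusted p = 0.0234) and without stretched control 3 (adjusted p = 0.0094), where the SE was 0.13. Smad9 was in the same position. It was at 3.64, 3.74 and 3.55 FPKM without and 5.33, 5.56 and 5.36 with stretch, and the change of 0.47 ± 0.23 had an adjusted p of 0.1970, or 0.0077 with only these groups and 0.0147 without stretched control 3. Smad7 was at 10.4, 11.7 and 8.52 FPKM without and 13.4, 12.3 and 11.1 with stretch (0.25 ± 0.11, 95% interval 0.01 to 0.49, adjusted p = 0.1478), and its groups overlapped. Bambi was at 29.2, 30.5 and 28.7 FPKM without and 34.8, 28.3 and 32.6 with stretch (0.11 ± 0.09, interval −0.09 to 0.30, adjusted p = 0.4689).

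In the stretched Wnt5a siRNA libraries endothelial markers summed to 91.5, 69.7 and 52.3 FPKM, against 29.3, 17.8 and 37.4 without stretch. Of the 11 tested endothelial markers 6 rose here. Fibroblast markers summed to 8726 to 9326 FPKM against 5088 to 5370, with 8 of 9 raised, and macrophage markers to 285 to 325 against 116 to 123, also with 8 of 9 raised. The part of these cells in the Id values was not tested.

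**Figure D2:**
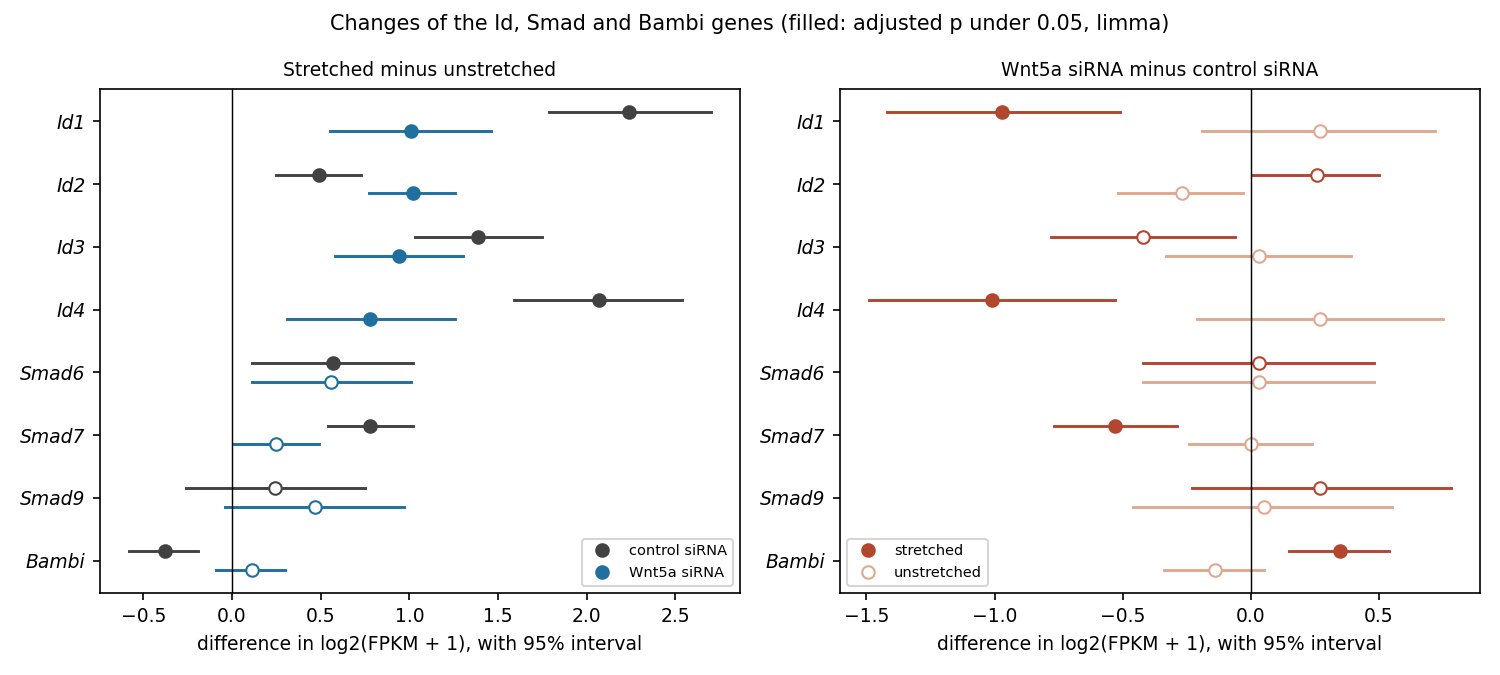
Differences in mean log2(FPKM + 1) with 95% intervals (horizontal axes) of the 8 genes, for stretched minus unstretched cells with either siRNA (left) and for Wnt5a siRNA minus control siRNA with or without stretch (right); filled points passed limma's test. With stretch and control siRNA Id1 changed by 2.24 and Id2 by 0.49, and with Wnt5a siRNA the changes were 1.01 and 1.02.

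The difference between these responses, tested as an interaction, passed for 5 of the 8 genes, against 23.8% of all tested genes. Over all genes 11.7% had a higher and 12.1% a lower interaction (1226 and 1277 genes, or 1611 and 815 with TPM scaling). The change with stretch was smaller with Wnt5a siRNA for Id1 (difference −1.23 ± 0.30, adjusted p = 0.0124), Id4 (−1.28 ± 0.31, adjusted p = 0.0130) and Smad7 (−0.53 ± 0.15, adjusted p = 0.0275). It was larger for Id2 (0.53 ± 0.16, adjusted p = 0.0309), and the fall of Bambi with control siRNA was not matched with Wnt5a siRNA (0.49 ± 0.13, adjusted p = 0.0178). The interactions of Id1, Id4 and Bambi passed under all 19 alternatives.

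The interaction of Id2 did not pass without any 1 of 9 libraries. These were unstretched control 2 (adjusted p = 0.0795) and 3 (0.0786), unstretched Wnt5a siRNA 1 (0.0774) and 3 (0.0619), stretched control 1 (0.0712) and 2 (0.0562), and stretched Wnt5a siRNA 1 (0.0652), 2 (0.0528) and 3 (0.0586). That of Smad7 did not pass without unstretched control 2 (0.0615) or 3 (0.0656), unstretched Wnt5a siRNA 1 (0.0642) or 2 (0.0682), stretched control 1 (0.0678) or stretched Wnt5a siRNA 3 (0.0740). For Id3 the difference was −0.45 ± 0.24 (95% interval −0.96 to 0.06, adjusted p = 0.1823), so that a smaller rise with Wnt5a siRNA was not shown for it. That of Smad6 was −0.00 ± 0.29 (interval −0.64 to 0.63), and that of Smad9 was 0.22 ± 0.33 (interval −0.49 to 0.94), or 0.58 ± 0.18 without stretched control 3, where it passed (adjusted p = 0.0278).

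The next comparison set Wnt5a siRNA against control siRNA among stretched cells. Id1, Id4 and Smad7 were lower and Bambi was higher, 4 of 8 genes, where over all genes 27.3% were called, 13.2% higher and 14.2% lower (1386 and 1489 genes, or 2190 and 811 with TPM scaling). The groups did not overlap for 5 of the 8 genes, against 37.6% of all tested genes. This comparison and stretch with control siRNA share the stretched control libraries. The levels in the stretched Wnt5a siRNA cells, whose values are given above, were 51.7% of the stretched control for Id1 (−0.97 ± 0.21, adjusted p = 0.0077), 47.9% for Id4 (−1.01 ± 0.22, adjusted p = 0.0078) and 67.5% for Smad7 (−0.53 ± 0.11, adjusted p = 0.0064). In each of the 3 genes the highest Wnt5a siRNA library was below the lowest control library, and the call held under all 20 alternatives.

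Bambi was at 128% of the stretched control (0.35 ± 0.09, adjusted p = 0.0168). This call was lost with only the stretched groups in the fit (0.0803) and without stretched control 1 (0.0616) or 2 (0.0660) or stretched Wnt5a siRNA 1 (0.0680) or 3 (0.0631). Id2 was at 119% of the control (0.26 ± 0.11, adjusted p = 0.1064) and passed with TPM scaling (0.37, adjusted p = 0.0285), after quantile normalization (0.37, adjusted p = 0.0426) and without stretched control 3 (0.34, adjusted p = 0.0306). Id3 was at 74.7% (−0.42 ± 0.17, adjusted p = 0.0792), with overlapping libraries, and passed without stretched control 2 (−0.57, adjusted p = 0.0404). Smad6 was at 99.0% (0.03 ± 0.21, 95% interval −0.42 to 0.48). Smad9 was at 116% (0.27 ± 0.23, adjusted p = 0.3968), or 0.62 ± 0.13 and called without stretched control 3 (adjusted p = 0.0030). Among markers, 6 of 9 tested fibroblast genes were higher and none lower with Wnt5a siRNA (sums of 8726 to 9326 FPKM against 4722 to 8179), and 3 of 11 endothelial genes were higher and none lower (52.3 to 91.5 FPKM against 31.1 to 43.9). Of 9 cardiomyocyte genes 2 were lower, or 6 without stretched control 3, and none higher (17940 to 25052 FPKM against 25416 to 37632). Actc1 alone had means of 8785 FPKM against 16845, so these sums largely reflect 1 gene. The part of these cells in the changes of the 8 genes was not tested.

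Without stretch, Wnt5a siRNA changed none of the 8 genes at the threshold by limma, where 28.5% of all genes were called, and the groups did not overlap for 1 of the 8, Bambi, against 49.4% of all tested genes. By limma 1 gene, Id2, had an unadjusted p under 0.05 (adjusted p = 0.0875), at 82.3% of the control (−0.27 ± 0.11). It passed without unstretched control 1 (−0.39, adjusted p = 0.0222) or unstretched Wnt5a siRNA 2 (−0.38, adjusted p = 0.0383). Intervals of the other changes ran from −0.34 to 0.05 for Bambi, −0.19 to 0.72 for Id1, −0.21 to 0.75 for Id4, −0.33 to 0.39 for Id3, −0.24 to 0.24 for Smad7, −0.42 to 0.48 for Smad6 and −0.46 to 0.55 for Smad9. The siRNA lowered Wnt5a itself in this comparison (adjusted p = 0.0014). Among markers, 6 of 9 macrophage and 4 of 9 cardiomyocyte genes were lower with Wnt5a siRNA and none higher. Of 9 fibroblast genes 3 were higher and 2 lower, and of 11 endothelial genes 1 was lower and none higher. The part of these cells in the values of the 8 genes was not tested.

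Placed in order, the groups differed from gene to gene. Mean levels of Id1, lowest first, were 14.9 FPKM (unstretched control), 18.5 (unstretched Wnt5a siRNA), 38.5 (stretched Wnt5a siRNA) and 74.4 (stretched control), and the first neighbours did not differ by the test. Id4 had the same order (4.02, 4.94, 9.35 and 19.5 FPKM), as did Id3 (66.3, 68.3, 132 and 177) and Smad7 (10.1, 10.2, 12.3 and 18.2). In Id3 the last neighbours also did not differ by the test, and in Smad7 only the last did. For Id2 the order was 40.2 FPKM in the unstretched Wnt5a siRNA, 48.8 in the unstretched control, 68.6 in the stretched control and 81.8 in the stretched Wnt5a siRNA, and only the middle neighbours differed by the test. For Smad6 the means were 7.89, 8.12, 12.6 and 12.7 FPKM in the order of Id1, with no neighbours that differed by the test. Smad9 ran from 3.52 to 5.42 FPKM, and its middle groups, the unstretched Wnt5a siRNA (3.64) and the stretched control (4.67), overlapped. Bambi was lowest in the stretched control (24.9 FPKM), followed by 29.5, 31.9 and 32.6 in the unstretched Wnt5a siRNA, stretched Wnt5a siRNA and unstretched control, and the top pair overlapped.

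The 4 Id genes summed to 133, 137 and 132 FPKM without stretch and to 352, 293 and 373 FPKM with stretch and control siRNA. With Wnt5a siRNA the sums were 128, 156 and 111 without and 293, 276 and 217 with stretch. Every stretched library had a larger sum than every unstretched one, and with control siRNA the shares also differed. Neither sums nor shares were tested. Id1 made up 11.1% ± 0.953 of the summed FPKM in the unstretched and 22.1% ± 3.60 in the stretched control, and Id2 36.4% ± 4.88 and 20.3% ± 1.94. With Wnt5a siRNA these shares were 13.9% ± 1.39 and 14.5% ± 2.25 for Id1 and 30.6% ± 2.34 and 31.7% ± 4.54 for Id2. Id3 stayed at mean shares of 49.5% to 51.9% in the 4 groups. Smad6 relative to Smad7 was 0.705 to 0.858 in the unstretched control, 0.527, 0.524 and 1.08 with stretch and control siRNA, and 0.918 to 1.15 with stretch and Wnt5a siRNA.

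**Figure D3:**
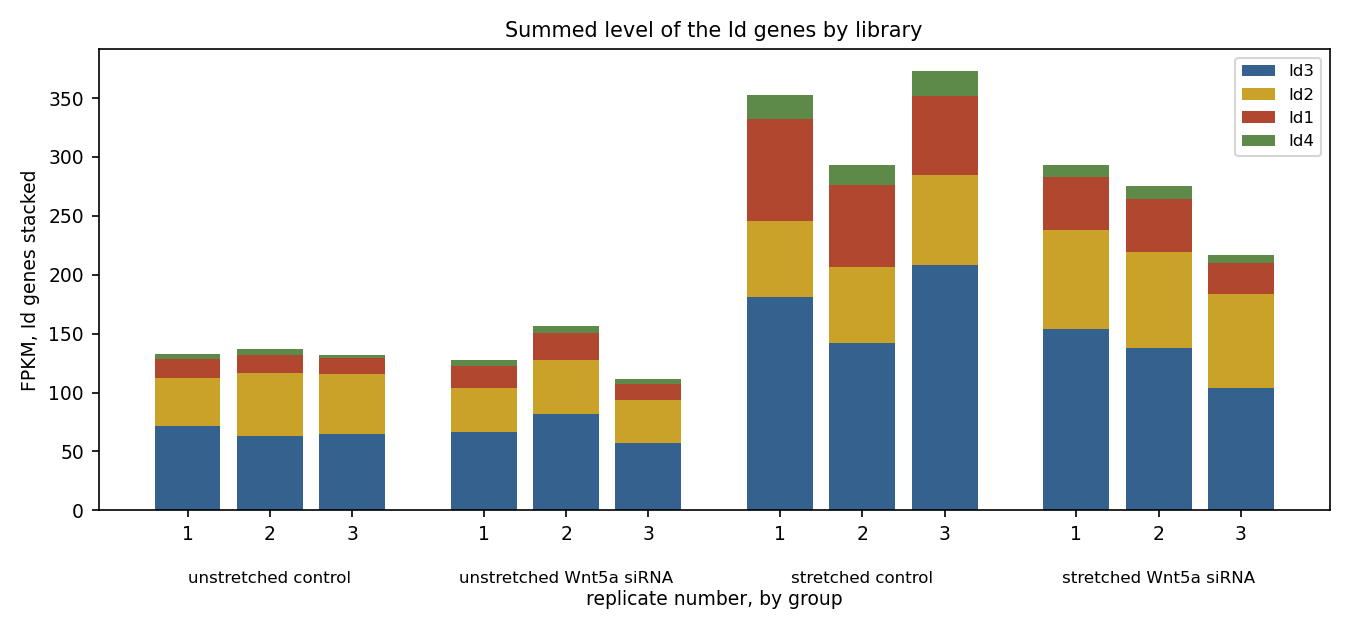
FPKM of Id3, Id2, Id1 and Id4 stacked for each library (vertical axis from 0), with replicates 1 to 3 of each group side by side. The sums lie at 111 to 156 FPKM without and 217 to 373 with stretch, and the Id1 segment is largest in the stretched control libraries.

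The rest of the pathway was described from lists of other genes, whose counts are set against the percentages of all genes called above. Of 15 tested ligand genes 8 rose and 2 fell in stretch with control siRNA, with a median of 0.53 against 0.01 over all genes. The counts were 7 and 2 with TPM scaling and 10 and 2 without stretched control 3. Gdf6, a BMP-class ligand, went from 3.13 ± 0.983 to 13.9 ± 1.65 FPKM (1.87 ± 0.17, adjusted p = 5.7e-06), Inhba, the activin A chain, from 33.8 ± 6.79 to 82.8 ± 1.57, and Tgfb2 from 71.2 ± 10.9 to 201 ± 36.5. With Wnt5a siRNA and stretch these stood at 7.61 ± 0.964, 47.7 ± 5.05 and 85.5 ± 24.5 FPKM, each lower than in the stretched control (adjusted p = 0.0083, 0.0026 and 0.0028). Of the 15 ligand genes 6 were lower and none higher there. With TPM scaling 5 were lower and 1 higher, and without stretched control 3 these counts were 8 and 1. Without stretch 3 of the 15 were higher with Wnt5a siRNA and none lower. In stretch with Wnt5a siRNA 1 rose, or 2 without stretched control 3, and 2, Tgfb3 and Bmp3, fell. Bmp4, a main cardiac BMP named here after its values were seen, was at 11.9, 11.8 and 5.83 FPKM without and 25.3, 20.6 and 14.2 with stretch and control siRNA (0.98 ± 0.26, adjusted p = 0.0073).

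Receptors moved both ways. Of 13 tested receptor and co-receptor genes 3 rose and 5 fell in stretch with control siRNA, or 1 and 6 with TPM scaling and 5 and 5 without stretched control 3. All genes moved both ways too, with 27.5% higher and 26.8% lower, and the median of the 13 was 0.04 against 0.01 over all genes. The BMP co-receptor genes Rgma (71.5 to 33.8 FPKM, adjusted p = 2.4e-05) and Hfe2 (12.3 to 1.70, adjusted p = 3.5e-05) and the TGF-beta co-receptor gene Tgfbr3 (29.2 to 13.0, adjusted p = 1.2e-04) were among the falls. With Wnt5a siRNA under stretch the type II receptor gene Tgfbr2 was higher (42.8 to 64.5 FPKM, adjusted p = 0.0060) and Bmpr2, that of BMPs, lower (48.1 to 33.1, adjusted p = 0.0072). Of Smad1, Smad2, Smad3, Smad4 and Smad5, 2 rose with stretch and control siRNA. Smad1, which carries BMP signals, was at 13.9, 14.7 and 14.0 FPKM without and 20.9, 20.4 and 19.7 with stretch (0.49 ± 0.09, adjusted p = 4.6e-04), and Smad2 changed by 0.22 ± 0.08 (adjusted p = 0.0288). With TPM scaling 1 was higher and 1 lower. With stretch and Wnt5a siRNA limma called none of the 5, and none had an unadjusted p under 0.05, but 1 was lower with TPM scaling and 1 without stretched control 3. The interaction was also called for none, with 3 (Smad1, Smad2 and Smad5) at an unadjusted p under 0.05, and 2 were called lower without stretched control 3. Without stretch 2 of these 5 Smad genes were higher with Wnt5a siRNA and none lower. Under stretch Smad3, of the TGF-beta branch, was lower with Wnt5a siRNA (−0.31 ± 0.09, adjusted p = 0.0270), a call that was lost with TPM scaling.

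Other brakes on the pathway moved both ways. Of 12 tested intracellular inhibitors 4 rose and 1 fell in stretch with control siRNA, or 4 and 5 with TPM scaling, where 27.5% of all genes rose and 26.8% fell, and their median was 0.08. Tgif1, a co-repressor of Smads, changed by 0.88 ± 0.08, Fkbp1a, which holds type I receptors inactive, by 0.64 ± 0.09, and Nedd4l, a ubiquitin ligase, by −0.75 ± 0.11. In stretch with Wnt5a siRNA none rose and 1 fell. Under stretch 5 of the 12 were lower with Wnt5a siRNA and none higher (3 and none with TPM scaling), led by Smurf2, the ligase that Smad7 recruits to receptors (61.9 ± 4.71 to 45.0 ± 5.37 FPKM, adjusted p = 0.0055). Of 7 tested secreted antagonists 3 rose and none fell with stretch and control siRNA, led by Fstl3, which binds activins (23.6 ± 3.21 to 76.1 ± 28.4 FPKM, adjusted p = 1.6e-04), and Bmper. With TPM scaling 2 rose and 1 fell, and without stretched control 3 the counts were 4 and 1. Under stretch 3 of the 7 were higher and 3 lower with Wnt5a siRNA. Among these Fst, encoding follistatin, was lower (53.0 ± 16.6 to 21.5 ± 2.40 FPKM, adjusted p = 0.0035) and Nbl1 higher (adjusted p = 0.0019).

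Response genes other than the 8 gave different counts for the 2 branches. Of 11 tested BMP response genes 3 rose and 1 fell in stretch with control siRNA, with a median of 0.04, or 5 and 1 without stretched control 3. Over all genes 27.5% rose and 26.8% fell, with a median of 0.01, so the count that rose was near the share of all genes. Hamp, which encodes hepcidin, was at 20.5, 34.7 and 34.3 FPKM without and 68.3, 74.5 and 124 with stretch (1.53 ± 0.22, adjusted p = 1.1e-04), and at 88.4 ± 5.32 in the stretched Wnt5a siRNA libraries. Runx2 rose (0.85 ± 0.14) and Tbx20, a cardiac T-box factor, fell (−0.39 ± 0.08). With Wnt5a siRNA 2 of the 11, Msx1 and Hamp, rose with stretch. Of 15 tested TGF-beta response genes 11 rose and none fell with control siRNA, with a median of 0.67, and 3 rose and 2 fell with Wnt5a siRNA. With control siRNA 9 rose with TPM scaling and 13 without stretched control 3, and none fell. With Wnt5a siRNA the counts were 2 and 3 with TPM scaling and 3 and 3 without stretched control 3. Between the siRNAs, 5 of the 15 were higher and 1 lower with Wnt5a siRNA without stretch (median 0.34). With stretch 3 were higher and 9 lower (median −0.63). Over all genes 14.6% were higher and 13.9% lower without stretch. The interaction, which includes the difference without stretch, was lower for 11 of 15 (median −0.85, against 0.00 over all genes). Examples were Cdkn2b, a Cdk inhibitor (16.7 to 68.5 FPKM with control siRNA and 25.3 to 49.4 with Wnt5a siRNA), and Bhlhe40, a bHLH repressor (1.23 ± 0.11, with an interaction of −1.08 ± 0.16, adjusted p = 0.0017). Fibroblast markers, of which Col1a1 and Postn are also in this list, had sums of 3343 to 3861 FPKM without and 4722 to 8179 FPKM with stretch and control siRNA, and their part in these counts was not tested.

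The partners that Id proteins bind were listed as E proteins and tissue-specific bHLH factors. Of the E protein genes Tcf3, Tcf4 and Tcf12, limma called none with stretch under either siRNA. At an unadjusted p under 0.05 there was 1 with control siRNA (Tcf3) and 1 with Wnt5a siRNA (Tcf4), with TPM scaling 1 was lower with control siRNA, and without stretched control 3 there was 1 higher with Wnt5a siRNA. Under stretch 2 of the 3 were higher with Wnt5a siRNA, or 3 with TPM scaling and 3 without stretched control 3. These were Tcf3 (27.6 ± 2.43 to 33.8 ± 2.14 FPKM, adjusted p = 0.0253) and Tcf12 (28.8 ± 2.14 to 34.5 ± 1.85, adjusted p = 0.0383). Of 8 tested tissue-specific bHLH genes 3 rose with stretch and control siRNA, the mesenchymal Twist1 (9.69 to 18.1 FPKM, 0.83 ± 0.10) and Twist2 (1.11 to 3.83, 1.17 ± 0.18) and the tendon factor Scx (0.47 ± 0.14). Twist1 also rose with Wnt5a siRNA (0.40 ± 0.10, adjusted p = 0.0141), a call that was lost with TPM scaling.

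**Figure D4:**
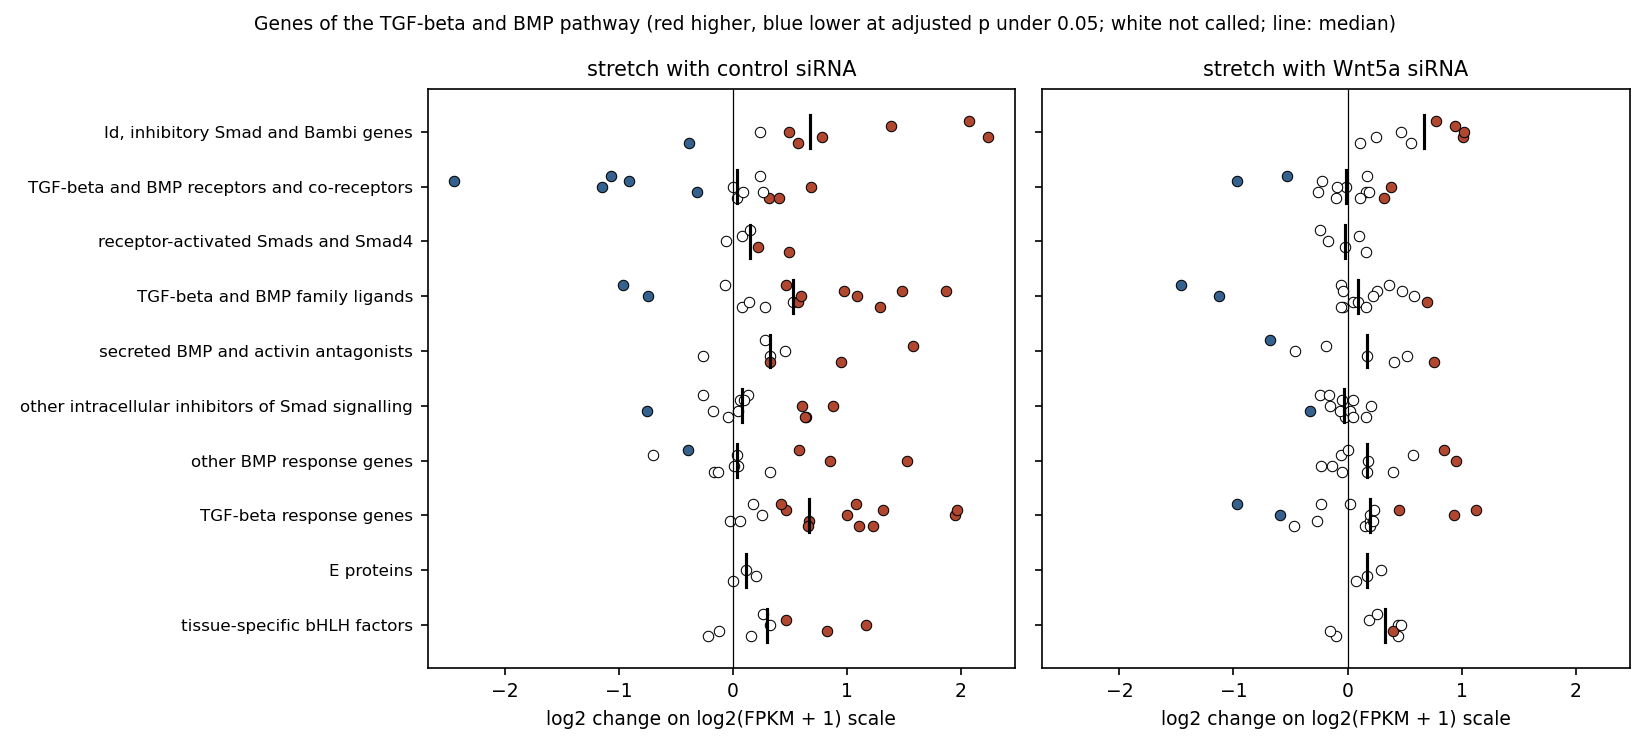
Log2 changes with stretch (horizontal axes) of every tested gene in each list, with control siRNA (left) and Wnt5a siRNA (right), red where higher and blue where lower at an adjusted p under 0.05, white where not called, with a line at the median of each list. The median of the Id, Smad and Bambi genes is 0.67 on both sides, while that of the TGF-beta response genes is 0.67 on the left and 0.20 on the right.

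The genes most like each of 4 members were taken by the highest Pearson correlation of log2(FPKM + 1) over the 12 libraries, a description that the 4 groups and the scaling of the libraries largely share. For Id1 these were Akr1a1 (r = 0.988), Cfl1 (0.986), Prmt1 (0.985), Mcfd2 (0.982) and Ranbp1 (0.979). Id4 came at rank 18 (0.975), Id3 at 47 (0.963) and Smad7 at 60 (0.959), whereas Id2 was at 1864 (0.702) and Bambi had r = −0.642. For Smad7 the first were Ube2n (0.968), Gorasp2 (0.966) and Rnf181 (0.964), with Id1 at rank 7. For Smad6 they were Col15a1, a basement membrane collagen (0.965), Cd48, a leukocyte surface protein (0.950), and Sh3rf1 (0.937), and Smad7 reached only 0.614. For Bambi they included Commd9 (0.943) and Prkra (0.916).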

How the data were processed

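Polyadenylated RNA of 12 libraries was sequenced with a stranded kit, per the labels' protocols. The authors deposited FPKM per gene symbol, made with TopHat2 2.1.1, Bowtie2 and Cuffdiff 2.2.1 on rat build rn6, per the submitters' processing notes. The annotation, the strand setting, scaling between libraries and the handling of multiply mapped reads were not given in the sources used here, so overlapping, antisense and near-identical genes are uncertain. Of 1523 genes above 0 in at least 3 libraries whose FPKM stayed under 0.5, 95.5% had values in whole-number ratios (tolerance 0.03), and the value of 1 fragment varied by a factor of 1.21 between libraries, which includes scaling. Reads were not recovered from the FPKM, and count models were not used.

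The filter kept genes that reached FPKM 1 in 3 or more libraries, and these were tested on log2(FPKM + 1) with limma 3.58.1 in R 4.3.3 (4 group means, all 12 libraries, eBayes with trend, 2-sided, Benjamini-Hochberg over all tested genes) in 5 comparisons. The fit was tested on simulated data. Alternatives were no filter, a filter at FPKM 5, a pseudocount of 0.1, TPM scaling, quantile normalization, the replicate block, eBayes without trend, only the groups compared, and leaving out each library. Leaving out a library of a group outside the comparison cannot change the difference of means. It changes only the spread and the genes that pass the filter. Promoter letters came from RefSeq (GRCr8), which differs from the build of the data.

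The 8 genes and the lists were chosen with earlier results of these data known. Named besides the 8 are Wnt5a, up to 3 called genes per list with the smallest adjusted p in stretch with control siRNA and up to 2 in other comparisons, and up to 5 most similar genes for Id1, Smad6, Smad7 and Bambi, passing over LOC and RGD symbols. Same-numbered unstretched and stretched Wnt5a siRNA libraries deviated from their group means together only weakly (r = 0.143 to 0.242 over 3 pairs). Each of these 3 stretched libraries nevertheless matched the unstretched library of its own number best. Single pairs in other comparisons reached similar values, but there some libraries matched another number best. The labels do not say what the numbers mark, so a pairing was neither shown nor excluded. Values given are from the fit without the block, and the block changed no call of the 8 genes there.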

Additional observations from a re-analysis of the deposited data

Results flagged for a closer look

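The responses to stretch of 5 genes differed between the siRNAs by the interaction test in limma, which is what sets them apart here. The change with stretch under Wnt5a siRNA minus that under control siRNA was −1.23 for Id1 and −1.28 for Id4, both of which rose with either siRNA, and −0.53 for Smad7. It was 0.53 for Id2, whose rise was the larger one with Wnt5a siRNA, and 0.49 for Bambi, which fell with control siRNA and did not pass the test with Wnt5a siRNA. All 5 differences rest on 3 libraries per group, and under stretch the level of Wnt5a did not differ between the siRNAs by the test.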

How the results depend on the processing

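Over the 8 genes, 5 comparisons and their alternatives, 746 of 792 values stayed on their side of the threshold, 34 no longer passed, 12 newly passed, and no called value changed sign. The 746 include values that passed neither in the main fit nor in the alternative. The cause of the changes was not tested. Called in Wnt5a siRNA with stretch were 2875 genes, but 1208 with only the groups compared. Leaving out 1 library at a time gave 4810 to 6025 called genes in stretch with control siRNA (6 to 7 of the 8), 1092 to 4662 in Wnt5a siRNA with stretch (3 to 6), 1758 to 3935 in Wnt5a siRNA without stretch (0 to 1), 848 to 2625 in stretch with Wnt5a siRNA (3 to 6) and 1572 to 3634 in the interaction (3 to 6). Each of these fits keeps at least 2 libraries per group. With the replicate block 5710, 2928, 3093, 1693 and 2566 genes were called in the same order, and the Smad6 call in stretch with control siRNA was the only one of the 8 genes' that changed (adjusted p = 0.0517). Same-numbered libraries outside the Wnt5a siRNA pair did not all deviate together (r = −0.019 to 0.249), and in every comparison the block rests on a number alone. FPKM hold no read depth, so what depth limits in the 8 genes is unknown.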

Other observations

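Within the unstretched Wnt5a siRNA group, library 3 had the lowest and library 2 the highest FPKM for 8 of the 8 genes. This includes the least variable, Smad9 (3.55 and 3.74 FPKM). Within the stretched Wnt5a siRNA group library 3 was the lowest for 6 genes, the exceptions being Smad9 and Bambi. Summed FPKM were lowest in the same libraries, at 575161 in unstretched library 3 (607276 in library 2) and 619742 in stretched library 3. Whether the order of libraries holds with TPM scaling was not tested, and the share of all genes with this order was not counted. The counts of calls that follow do not bear on the order. With TPM scaling, which sets these sums equal, the number of the 8 genes called was 4 in stretch with Wnt5a siRNA and 5 in the interaction, as without it, 5 in place of 4 in Wnt5a siRNA with stretch, 5 in place of 7 in stretch with control siRNA, and 0 in both cases in Wnt5a siRNA without stretch.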
